A study of Oryza sativa with 18 samples.

Results

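The 638 regions described here carried a methylation level under 50% in the embryo of the dry rice seed. They were taken from a table of 5908 regions that the authors had listed as differing between the dry seed and embryos germinated for 24 h. In all, 3 such tables were analysed, with 8941 regions between them. A group's level was the mean percentage of methylated reads over its libraries with 10 or more reads in the region, and a region was kept when this level was under 50 in the dry seed. The headers do not say whether these totals count molecules or the cytosines read in them, so "reads" stands throughout for the deposited totals. The other 5270 regions of the table are used for comparison. The members were therefore chosen by a measured value, the dry seed level, and the authors' listing had used the dry seed and both 24 h groups. All contrasts with the dry seed are given as descriptions without a test.

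DNA methylation was measured by MethylC-seq, a bisulfite sequencing method, in wild type rice of the cultivar Amaroo (Oryza sativa). The 6 groups had 3 libraries each. The first was the embryo of the dry seed at 0 h. A pair of groups were 24 h embryos, whose medium was bubbled either with nitrogen gas (24 h nitrogen) or with air (24 h air). The remaining groups were whole coleoptiles. Re-aeration names those given air for 1 d after 3 d of nitrogen, 4 d nitrogen those left in nitrogen throughout, and 4 d air those grown in air throughout. All germinated groups came from de-hulled, surface-sterilised seeds kept at 30 °C in the dark. Primary leaf tissue was removed from the coleoptiles harvested under aerobic conditions, per the labels. Time and tissue changed together between 24 h and 4 d, and between the dry seed and the coleoptiles, so they cannot be told apart. No library was taken after 3 d of nitrogen, before air was given. Rises, falls and gains after re-aeration therefore name differences from separate coleoptiles kept in 1 gas. The tables hold no expression values, so the tissue labels were not checked against marker genes.

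Plants place methyl groups on cytosines in the CG, CHG and CHH contexts, where H stands for A, C or T. In Arabidopsis, MET1 copies CG methylation after replication, CMT3 maintains the CHG context, and CMT2 and the RNA-directed pathway through DRM2 maintain the CHH context. In seeds of several plants, CHH methylation accumulates while the embryo matures and is lost again at germination. The coleoptile, the sheath around the first leaf, is the organ that rice elongates when it germinates under water. The column names of the table carry CG and the deposited name of the set of regions carries CNN, so it remains unclear which context was counted. No genome of the files' build was at hand, so genes and sequences of the regions were not analysed here, and coordinates are as the authors gave them.

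In the dry seed the 638 regions had a mean level of 43.4% ± 2.37 (SD, n = 3 libraries), against 71.4% ± 1.57 in the other 5270. The 3 dry seed libraries averaged 45.9, 41.2 and 43.1% over the members. Most members lay close under the threshold: 494 were between 40 and 50% and 15 were under 30%. In 214 members all 3 dry seed libraries were under 50%, while 335 had 1 library at 50% or over and 89 had 2. Just inside the threshold were chr1:33666991-33667079 (49.9%), chr2:19586185-19586213 (49.98%) and chr6:20062609-20062720 (49.99%). Just outside were chr5:5108627-5108687 (50.03%), chr1:15196185-15196295 (50.1%) and chr5:11208188-11208235 (50.1%). The members' dry seed libraries also differed more among themselves than those of the rest of the table. The median range over the 3 libraries was 17.1 percentage points in the members and 12.4 in the rest, and it passed 20 points in 39.0% and 24.4% of them. The members also had fewer dry seed reads, with library medians of 155 to 187.5 per region against 258 to 303 in the rest. Their levels lay nearer 50% as well, and the parts of read number and level in this spread were not tested. Leaving out dry seed replicate 1, the highest of the 3 in 272 members, 767 regions met the rule; without replicate 2 there were 635 and without replicate 3 there were 675.

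After 24 h most members were at low levels. They averaged 12.6% ± 0.368 in 24 h nitrogen and 10.5% ± 0.707 in 24 h air (SD, n = 3 each), which was 29.1% and 24.2% of the dry seed mean. The other regions averaged 31.2% ± 0.181 in 24 h nitrogen and 27.9% ± 1.16 in 24 h air, or 43.7% and 39.1% of theirs. Per library the members stood at 12.3, 12.6 and 13.003% in 24 h nitrogen and at 9.86, 11.3 and 10.4% in 24 h air. Under 5% were 121 members in 24 h nitrogen and 166 in 24 h air, and 107 and 72 still held 20% or more.

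Among the coleoptiles, the re-aeration libraries stood apart. After re-aeration the members averaged 31.6% ± 0.571, against 11.96% ± 0.524 in 4 d nitrogen and 8.39% ± 0.445 in 4 d air (SD, n = 3 each). The libraries stood at 31.1, 31.5 and 32.2% after re-aeration, at 11.7, 12.6 and 11.6% in 4 d nitrogen and at 8.90, 8.13 and 8.13% in 4 d air. No re-aeration library came near any of the other coleoptile libraries. The re-aeration mean was 72.8% of the dry seed mean, against 27.6% for 4 d nitrogen and 19.3% for 4 d air. In the other regions of the table these shares were 85.7%, 43.96% and 34.99%. Within each of the 6 groups the members' mean was below that of the rest, by between 16.6 and 29.6 points. In the dry seed this follows from the rule. In the other groups it is not independent of the low dry seed level that chose the members. A methyl group on all copies in some cells and on some copies in all cells cannot be told apart in bulk tissue.

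**Figure D1:**
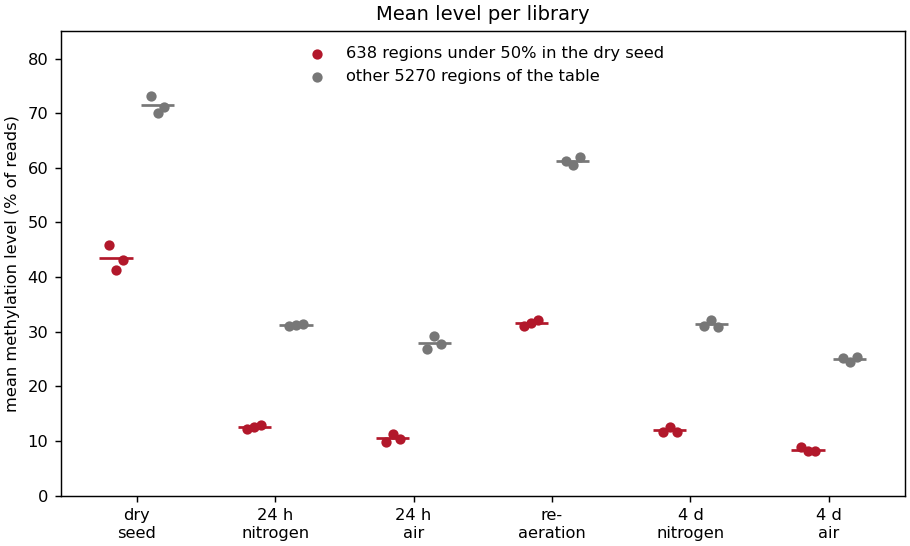
Mean methylation level (% of reads) of the 638 regions under 50% in the dry seed (red) and of the other 5270 regions (grey), 1 point per library and a bar at the group mean, for the 6 groups. The red points lie at 41.2 to 45.9% in the dry seed, at 31.1 to 32.2% after re-aeration and at no more than 13.003% in the other 4 groups.

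Region by region the order was similar. The dry seed was the highest of the 6 groups in 558 members, a position that the authors' selection of the regions favoured. Re-aeration was the highest in 78 members and the second highest in 479. Among the 5 germinated groups, re-aeration was the highest in 557 members, 24 h nitrogen in 47, 4 d nitrogen in 28, 24 h air in 5 and 4 d air in 1. The lowest of the 6 groups was 4 d air in 386 members, 24 h air in 117, 4 d nitrogen in 63, 24 h nitrogen in 60 and re-aeration in 12. The member medians were 44.7% in the dry seed, 11.4% in 24 h nitrogen, 8.74% in 24 h air, 32.1% after re-aeration, 10.02% in 4 d nitrogen and 6.22% in 4 d air. The quartiles overlapped among the 4 groups kept in 1 gas, the lowest being 2.92 to 12.4% in 4 d air and the highest 6.35 to 17.6% in 24 h nitrogen. Those of re-aeration, 24.5 to 38.3%, lay above all 4.

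**Figure D2:**
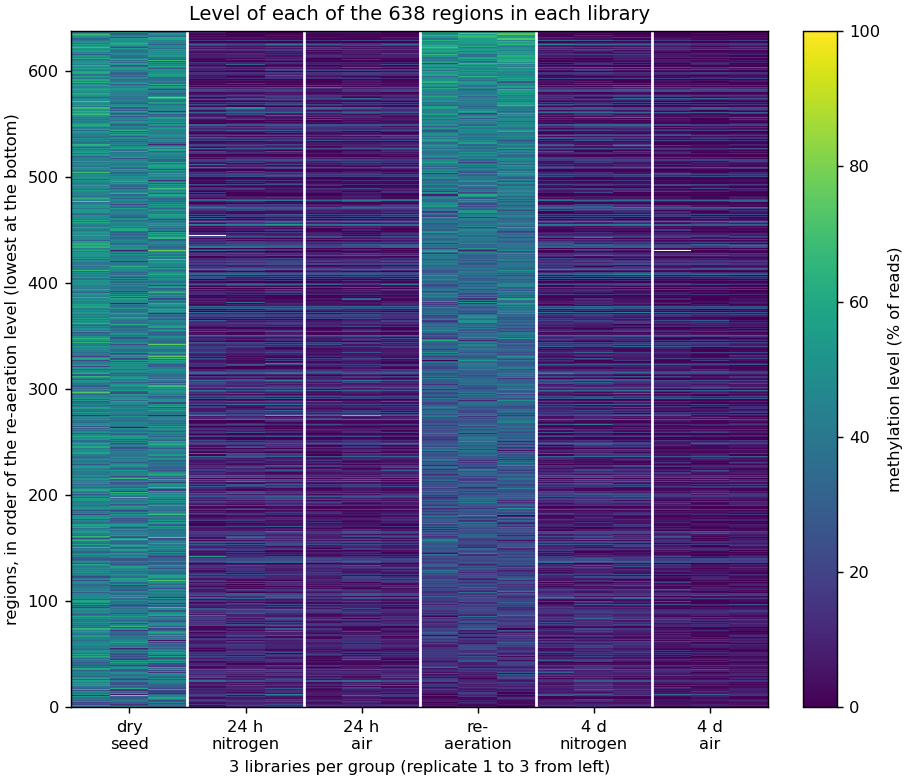
Methylation level of each of the 638 regions (rows, ordered by the re-aeration level with the lowest at the bottom) in each of the 18 libraries (columns, 3 per group), in % of reads; white cells had fewer than 10 reads. The dry seed and re-aeration columns are brighter than the other 4 groups over most rows, and the re-aeration columns darken towards the bottom, where the 104 members under 20% lie.

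Comparisons between groups other than the dry seed were tested per region with a quasi-binomial logistic model on methylated and total reads. All 18 libraries, those of the dry seed among them, shared a region's spread. The p-values were adjusted by Benjamini-Hochberg over the regions of the whole table. A region was called at an adjusted p under 0.05 with a difference of at least 10 points. All 638 members could be tested in all 6 comparisons. The labels number the replicates but do not say that they came from separate cultures, so the spread behind the p-values is that between libraries and could be technical.

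Most members were more methylated after re-aeration than in coleoptiles left in nitrogen. Of the 638, 409 were called higher and 1 lower, so that 64.1% were higher, against 69.9% higher and 0.341% lower of all tested regions of the table. Their share of higher calls was thus near, and slightly below, that of the whole table. By limma 425 members were higher and 2 lower, against 73.5% and 0.477% of all tested regions. An unadjusted p under 0.05 (quasi-binomial model) was found in 442 members, against 73.5% of all tested regions. The median difference was 19.8 points in the members and 28.7 in the other regions, and 27.3 over all. The members' mean was higher by 19.6 points and that of the rest by 29.8. The gain of the members was 10.2 points smaller, with an exact two-sided permutation p of 0.1 over 3 against 3 libraries, the smallest that this design allows (adjusted over the 6 comparisons, 0.12). Across regions the level after re-aeration went with the dry seed level (Pearson's r 0.43 in the members, 0.77 in the rest). The smaller gain in points is thus not independent of the low dry seed level that chose the members. All 3 re-aeration libraries were above all 3 libraries of 4 d nitrogen in 428 members, and below them in 12, against 72.6% and 1% of all tested regions.

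**Figure D3:**
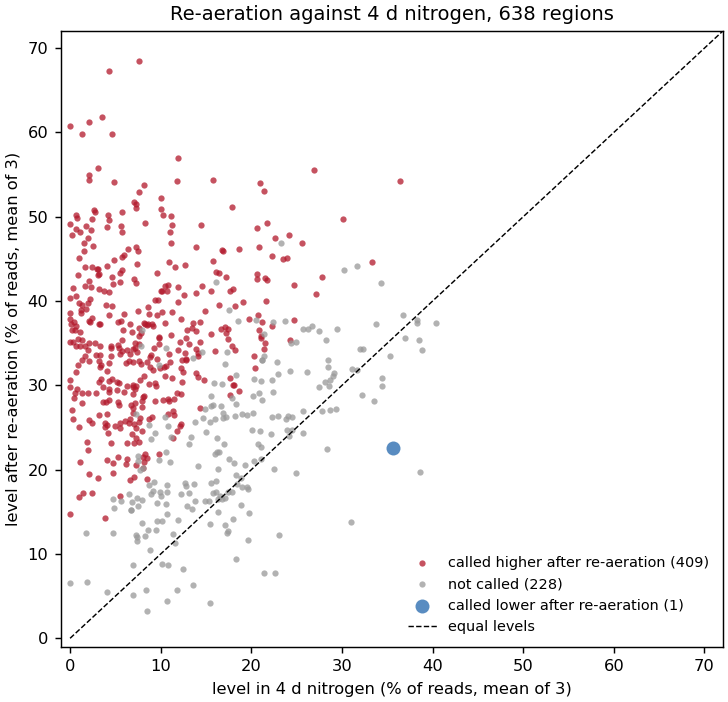
Mean level after re-aeration against the mean level in 4 d nitrogen (% of reads, mean of 3 libraries) for each of the 638 regions; red points were called higher after re-aeration (409), the blue point lower (1), grey points were not called (228), and the dashed line marks equal levels. Most points lie above the line, and 54 lie below it.

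The largest rises came in regions that were almost free of methylation in 4 d nitrogen. The widest difference, 63.0 points, was at chr3:5806252-5806276, which held 52.6, 87.9 and 61.4% after re-aeration, against 7.68, 5.25 and 0% in 4 d nitrogen (adjusted p = 3.71e-05, quasi-binomial model). Its 3 re-aeration libraries were spread over more than 30 points but did not overlap the nitrogen libraries, and its dry seed libraries lay between 48.8 and 51.8%. The region at chr9:21826957-21826972, of 16 bp, held 75.7, 58.9 and 71.0% after re-aeration, against 7.83, 8.18 and 6.65% in 4 d nitrogen (difference 61.0 points, adjusted p = 1.11e-05, quasi-binomial model). At chr4:6742224-6742306 no methylated read was counted in 4 d nitrogen, 4 d air or 24 h nitrogen, while the re-aeration libraries held 51.004, 56.0 and 75.4%. Its 3 nitrogen libraries at 4 d had 158, 98 and 104 reads, and its difference was 60.8 points (adjusted p = 0.00025, quasi-binomial model). The dry seed libraries of that region were far apart, at 68.7, 27.9 and 49.0%. These regions were also called against 4 d air.

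In the same comparison chr11:9987369-9987451 held 40.2, 72.9 and 70.6% after re-aeration, against 1.85, 4.56 and 0% in 4 d nitrogen (difference 59.1 points, adjusted p = 4.09e-05, quasi-binomial model). At chr3:3830619-3830681 the values were 54.1, 69.1 and 56.2% after re-aeration and 0.818, 2.41 and 0.876% in 4 d nitrogen (difference 58.4 points, adjusted p = 1.33e-06, quasi-binomial model). In all 5 regions the re-aeration mean was above the dry seed mean of the same region: 67.3 against 49.9% in the first, and 59.8 against 44.1% in the last. These dry seed values chose the regions and are not a test.

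One member fell. At chr7:2626120-2626227 the level was 23.2, 24.0 and 20.7% after re-aeration, against 37.7, 39.5 and 29.8% in 4 d nitrogen (difference -13.03 points, adjusted p = 0.0016, quasi-binomial model). The 4 d air libraries of this region, at 23.6, 24.8 and 21.9%, overlapped the re-aeration libraries, and the difference between them, -0.80 points, did not pass the test (adjusted p = 0.81, quasi-binomial model). It was one of 34 members that held 20% or more in each of the 4 groups kept in 1 gas. The region was called lower in all 12 alternatives that kept the threshold for members and the minimum difference.

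Against 4 d air, re-aeration was higher in 486 members and lower in none of them (76.2% higher), while 84.3% of all tested regions were called higher and 0.017% lower. At an unadjusted p under 0.05 there were 507 members in either direction, against 86.1% of all tested regions. Fitted to the levels, limma called 488 higher and none lower, against 86% and 0.017% of all tested regions. The median difference was 23.1 points in the members and 36.0 in the rest. The gain was 13.03 points smaller in the members' mean than in that of the rest (exact two-sided permutation p = 0.1, adjusted 0.12). As against 4 d nitrogen, this smaller gain is not independent of the choice of members. All 3 re-aeration libraries were above the 4 d air libraries in 509 members and below them in 1, against 84.6% and 0.0852% of all tested regions. Besides regions already named, the 5 widest differences took in chr1:37395262-37395329, with 60.7, 60.2 and 64.6% after re-aeration against 1.63, 1.27 and 2.33% in 4 d air (difference 60.1 points, adjusted p = 3.47e-06, quasi-binomial model).

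The 2 comparisons share the re-aeration libraries. Called higher against both were 403 members, against 4 d air alone 83 and against 4 d nitrogen alone 6, and 145 were called against neither. Of all regions tested in both, these classes held 68.6%, 15.6%, 1.2% and 14.2%. The 403 averaged 36.4% after re-aeration, 8.55% in 4 d nitrogen and 6.25% in 4 d air. The 145 averaged 21.2% after re-aeration, 18.7% in 4 d nitrogen and 13.9% in 4 d air, so that their 3 coleoptile means lay within 8 points. The 409 regions that rose against nitrogen had a median length of 50 bp with 6 sites by the authors' count, and the 228 not called had 34 bp and 4 sites. The median reads per library were 126.7 after re-aeration and 120.3 in 4 d nitrogen in the 409, and 93.3 after re-aeration and 106.8 in 4 d nitrogen in the 228, so the called regions also held more reads in both groups. The part of read number in the calls was not tested.

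Nitrogen and air differed by few percentage points in the members at either time, at low levels in both gases. At 4 d the members' mean was higher in nitrogen by 3.58 points (exact two-sided permutation p = 0.1, adjusted 0.12), and by 6.41 points in the rest. The level was higher in nitrogen in 523 members and lower in 109, and in 4213 and 1019 regions of the rest. Only 2 members passed the test as higher and none as lower, against 1.92% higher and 0.0171% lower of all tested regions. At an unadjusted p under 0.05 there were 68 members, against 16.9% of all tested regions. By limma 1 was called higher and none lower, against 4.02% and 0.0342% of all tested regions. The libraries of the groups did not overlap in 166 members with nitrogen higher and in 4 with nitrogen lower, against 29.4% and 1.42% of all tested regions. The median difference was 2.83 points in the members and 5.48 in the rest, and the upper quartile of the members reached 5.75 points. A minimum of 10 points was met by 62 members, while 263 members were under 5% in 4 d air. Summed methylated reads in 4 d nitrogen were 1.35 times those in 4 d air in the members. In the rest they were 1.36 times those in 4 d air.

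The wider of the 2 called differences was at chr6:26145290-26145308, where 4 d nitrogen held 18.4, 35.2 and 24.96% and 4 d air held 0, 5.76 and 3.44% (difference 23.1 points, adjusted p = 0.0417, quasi-binomial model). Its libraries had 68 to 76 reads in 4 d nitrogen and 52 to 58 in 4 d air. After re-aeration this region held 29.4, 35.3 and 29.9%, within the range of 4 d nitrogen. The other was chr7:2626120-2626227, described above, where 4 d nitrogen was higher than 4 d air by 12.2 points (adjusted p = 0.036, quasi-binomial model). Neither call was stable: of 12 alternatives the first was kept in 5 and the second in 4, with adjusted p from 0.0199 to 0.216 and from 0.0282 to 0.215. Leaving out any 1 of the 6 libraries ended both calls, except that without 4 d nitrogen replicate 3 the region on chromosome 7 was still called.

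At 24 h the members' mean was higher in nitrogen than in air by 2.12 points, and that of the rest by 3.29 (for the members, exact two-sided permutation p = 0.1, adjusted 0.12). The authors' listing used both 24 h groups, so tests on them are not independent of how the regions were chosen. The level was higher in nitrogen in 446 members and lower in 189, and in 3694 and 1555 regions of the rest. No member was called by the quasi-binomial model or by limma. At an unadjusted p under 0.05 (quasi-binomial model) there were 28 members, against 6.41% of all tested regions. Calls with more methylation in nitrogen made up 0.017% of all tested regions by the quasi-binomial model and 0.0849% by limma. Calls with less made up 0% by both. Library ranges were separate in 88 members with nitrogen higher and in 9 with nitrogen lower, against 13.9% and 1.82% of all tested regions. The difference between nitrogen and air at 4 d was set against that at 24 h in an interaction term. The quasi-binomial model called it in 0 members, against 0% of all tested regions in either direction. An unadjusted p under 0.05 was found in 18 members, against 5.24% of all tested regions. A call needed at least 10 points here too, while the members' mean differences were 2.12 points at 24 h and 3.58 points at 4 d. The 24 h tissue was embryo and the 4 d tissue coleoptile. No conclusion was therefore drawn on an oxygen effect that changed with time or tissue.

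From 24 h embryos to 4 d coleoptiles the members' mean changed by few points within 1 gas. These tests use the 24 h libraries of the authors' listing, so they are not independent of how the regions were chosen. In air the mean fell by 2.11 points (exact two-sided permutation p = 0.1, adjusted 0.12) and the level was lower at 4 d in 465 members and higher in 172. In the rest the level was lower in 3550 regions and higher in 1689. No member was called by the quasi-binomial model or limma. At an unadjusted p under 0.05 (quasi-binomial model) there were 41 members, against 11% of all tested regions. Calls with less methylation at 4 d made up 0.0341% of all tested regions by the quasi-binomial model and 0.0682% by limma. Calls with more made up 0% by both. The 4 d libraries were all below the 24 h libraries in 107 members and all above them in 17, against 18.4% and 4.11% of all tested regions. In nitrogen the 4 d mean differed from the 24 h mean by -0.66 points (exact two-sided permutation p = 0.2, adjusted 0.2), and the level was higher at 4 d in 267 members and lower in 369. In the rest the level was higher in 2546 regions and lower in 2698. No member was called by either tool. At an unadjusted p under 0.05 (quasi-binomial model) there were 20 members, against 3.75% of all tested regions. Calls with more methylation at 4 d made up 0.017% of all tested regions by both tools. Calls with less made up 0% by the quasi-binomial model and 0.017% by limma. The libraries at 4 d lay all above those at 24 h in 37 members and all below in 46, against 6.29% and 6.89% of all tested regions.

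**Figure D4:**
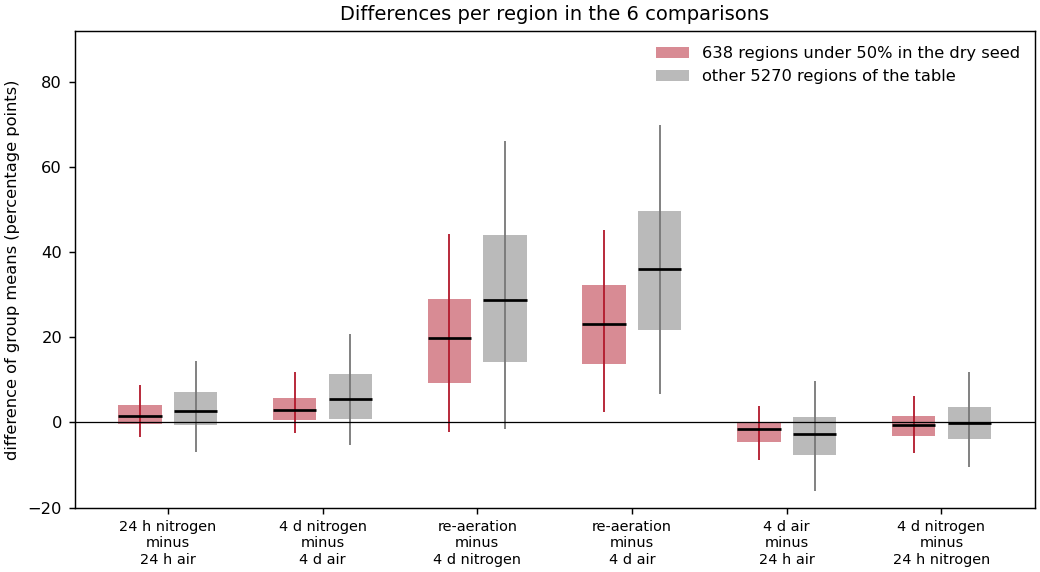
Difference of group means per region (percentage points) in the 6 tested comparisons, for the 638 regions (red) and the other 5270 (grey); boxes span the quartiles, black lines mark medians and thin lines run between the 5th and 95th percentiles. In both comparisons with re-aeration the members' medians, 19.8 and 23.1 points, lie under those of the rest, 28.7 and 36.0 points, and the other 4 pairs of boxes lie close to 0.

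The members varied in how much methylation stayed in the groups kept in 1 gas. In 93 members all 4 of these groups were under 5%, and these regions still averaged 36.6% after re-aeration, with 42.95% in the dry seed. In 34 members all 4 were at 20% or more, and there re-aeration averaged 34.3%, with a median difference from 4 d nitrogen of 1.82 points. The 34 regions were longer, with a median of 78 bp against 62 bp, yet had a median of 4 listed sites against 9. Ranked by the level in 4 d nitrogen and split into 4 classes of equal size, the members averaged 2.59, 7.70, 13.5 and 24.1% in 4 d nitrogen, and 35.2, 29.8, 29.4 and 32.0% after re-aeration. The level after re-aeration thus showed no steady order with the level in nitrogen. Across the 638 regions Pearson's r was between 0.82 and 0.89 for pairs of the 4 groups kept in 1 gas, between -0.09 and 0.02 for re-aeration with each of them, and 0.43 for re-aeration with the dry seed. In the rest of the table re-aeration and the dry seed had an r of 0.77. These values are descriptions across regions, which share libraries and sequence composition, and the members span only a narrow range of dry seed levels.

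The difference between re-aeration and 4 d nitrogen was larger in members with more listed sites, as a description without a test. The 178 members with 3 sites averaged 28.2% after re-aeration and 14.6% in 4 d nitrogen, and their median difference was 13.4 points. With 4 to 7 sites (281 members) the averages were 30.2% and 12.4% and the median difference 17.2 points. With 8 or more sites (179 members) they were 37.2% and 8.77%, with a median difference of 28.2 points. The count of sites is the authors' own, and regions with more sites were also longer and held more reads, with median reads per library in 4 d nitrogen of 73, 106.7 and 187.7 for the 3 classes. By length, the median difference was 15.4 points in the 120 members of up to 20 bp, 17.8 in the 237 of 21 to 50 bp, 23.8 in the 230 of 51 to 100 bp and 13.6 in the 51 over 100 bp. It was thus larger with length as well, except in the 51 longest, and the parts of sites, length and read number were not tested apart.

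The longest member had high levels in the dry seed and after re-aeration alone. At chr9:7352320-7352590, 271 bp with 25 listed sites, the level was 53.2, 47.8 and 47.6% in the dry seed. It was 0.963, 0.551 and 1.15% in 24 h nitrogen and 0.302, 2.95 and 3.92% in 24 h air. It was 40.8, 45.97 and 38.1% after re-aeration, 3.14, 2.25 and 1.49% in 4 d nitrogen and 1.38, 1.19 and 1.26% in 4 d air, with 311 to 782 reads per library. Every dry seed and re-aeration library was thus above 38% and each of the other 12 was under 4%. The next in length, chr4:21413684-21413948, did not follow it, with 18.1, 15.8 and 26.3% after re-aeration, 15.5, 17.7 and 15.7% in 4 d nitrogen and 13.8, 15.4 and 16.8% in 4 d air. At chr8:23314757-23315006, the third in length, re-aeration held 38.3, 32.7 and 34.4%, against 13.4, 9.07 and 13.98% in 4 d nitrogen and 5.76, 6.77 and 9.92% in 4 d air.

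One member hardly varied over the study. The region at chr1:16913267-16913344, with 2870 to 3293 reads in each library, held between 36.4 and 39.5% in all 18 libraries. Its means were 38.7% ± 0.693 in the dry seed, 38.3% ± 0.321 in 24 h nitrogen, 36.8% ± 0.308 in 24 h air, 37.4% ± 0.546 after re-aeration, 38.2% ± 0.910 in 4 d nitrogen and 36.7% ± 0.425 in 4 d air (SD, n = 3 each). It was listed by the authors although its group means spanned about 2 points. Others kept much of their methylation but varied more. The highest mean over the germinated groups was at chr3:4512913-4512996, with 46.9% in 24 h nitrogen, 36.7% in 24 h air, 37.4% after re-aeration, 40.4% in 4 d nitrogen and 28.9% in 4 d air, and 46.4% in the dry seed. The regions at chr6:25264763-25264827, chr1:23757518-23757540 and chr5:1272403-1272542 also kept between 27.2 and 39.5% in every germinated group.

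At the other end, chr3:16731086-16731099 held 2.49, 2.49 and 14.6% after re-aeration, against 0, 0 and 0% in 4 d nitrogen and 0, 3.56 and 0% in 4 d air. The dry seed libraries of this region held 37.1, 28.3 and 58.1%. The regions with the next lowest germinated means, chr3:21908278-21908283 and chr6:14070034-14070099, averaged 14.7% and 17.2% after re-aeration and no more than 5.80% in the other germinated groups. The lowest dry seed level was 17.9% at chr9:22628729-22628745, with libraries at 14.3, 31.8 and 7.56%. That region ran against the others: it held 46.9, 24.1 and 67.5% in 24 h nitrogen and 36.6, 76.0 and 28.3% in 24 h air. Its libraries disagreed widely and had as few as 15 reads. The next lowest, chr12:23773720-23773742 and chr8:5054018-5054110, had 21.2% and 22.3% in the dry seed and 8.81% and 14.1% after re-aeration.

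The level after re-aeration, set against the dry seed level of the same region, was uneven. The dry seed tissue was embryo and the re-aerated tissue coleoptile, so a return within the same tissue was not measured. After re-aeration 79 members (12.4%) stood at or over their own dry seed level, with a mean of 49.1% after re-aeration and 44.1% in the dry seed. A level over 50% was found in 33 members, and 104 were under 20%. Because the members were chosen for a low dry seed level, these counts are a description only. The matching shares of the rest were not computed.

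The spread between libraries was not the same in every group. The median range over the 3 libraries of a member was 14.4 points after re-aeration, close to the 17.1 of the dry seed, but 6.42 in 24 h nitrogen, 5.41 in 24 h air, 5.54 in 4 d nitrogen and 4.53 in 4 d air. More than 20 points separated the re-aeration libraries in 186 members, or 29.2% of them, against 33.7% of the rest. In the rest the median range was 15.1 points after re-aeration and 8.40 to 9.92 in the 4 groups kept in 1 gas. Those 4 groups also had lower mean levels, and the part of level in the spread was not tested. Where the spread came from the 2 compared groups alone, 317 members were called for re-aeration against 4 d nitrogen and 429 against 4 d air. Where only the dry seed libraries were left out of the spread, the counts were 427 and 500. The matching shares of all tested regions were not computed for these settings.

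Between re-aeration and 4 d nitrogen the members' methylated and unmethylated reads differed in opposite directions, while their total reads per region differed little. Summed over the members, re-aeration libraries held 31671, 35900 and 34684 methylated reads, against 14625, 16690 and 15997 in 4 d nitrogen, a ratio of 2.16 between the means. Unmethylated reads numbered 62585, 71433 and 66316 after re-aeration and 81580, 88121 and 90817 in 4 d nitrogen, a ratio of 0.77. More methylated and fewer unmethylated reads were thus both seen, and the median of the total reads per region differed little (log2 ratio -0.07). In the other regions of the table the ratios were 2.66 and 0.78, and the total reads per region were higher after re-aeration (median log2 ratio 0.46). From the dry seed to 24 h air the members' methylated reads were at 0.24 times and their unmethylated reads at 1.14 times the dry seed number. The part of read number in the levels was not tested, and the depth of the whole libraries was not analysed here.

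**Figure D5:**
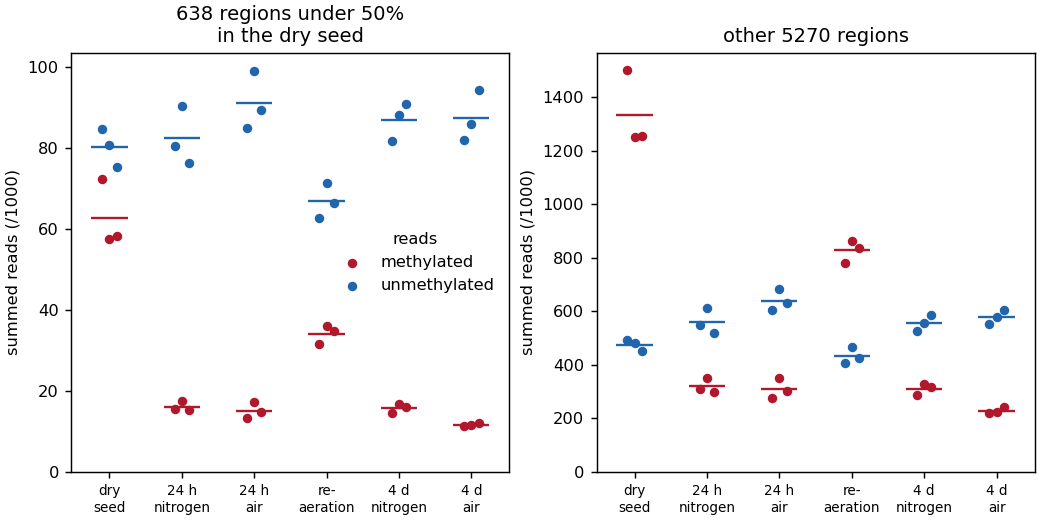
Methylated (red) and unmethylated (blue) reads summed over the 638 regions (left) and the other 5270 regions (right), divided by 1000, 1 point per library with a bar at each group mean. In the members unmethylated reads outnumber methylated ones in all 6 groups, and re-aeration has 31671 to 35900 methylated reads against 14625 to 16690 in 4 d nitrogen.

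The members were shorter and held fewer listed sites than the rest of the table. Their median length was 43 bp with 5 sites, against 60 bp with 7 sites, and 27.9% against 17.7% had only 3 sites. Per 100 bp there were 12.6 sites in the members and 14.8 in the rest. The authors' lists of high and low libraries gave all 3 dry seed libraries as high in 53.3% of the members and 71.7% of the rest. All 6 of the 24 h libraries were listed as low in 6.90% of the members and 29.1% of the rest. These lists rest on the same dry seed levels that chose the members.

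Members were found on all 12 chromosomes, from 31 on chromosome 12 to 85 on chromosome 1, with 1 more on a sequence named S. Their share of a chromosome's listed regions lay between 9.01% on chromosome 11 and 11.6% on chromosome 12. The mean difference between re-aeration and 4 d nitrogen was between 17.4 points on chromosome 9 and 23.7 points on chromosome 10. Members were scattered: the median distance to the next member was 176706 bp, and 14 lay within 1000 bp of another. Within 1000 bp of any listed region were 10.8% of the members and 9.49% of the rest.

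A small number of members were listed by the authors a second time, in the table made for re-aeration and 4 d nitrogen. By at least 1 bp, 52 members overlapped it, 8.15% of the members and 5.76% of that table, against 12.9% of the rest of the dry seed table. The 52 averaged 47.2% ± 0.565 after re-aeration, 7.60% ± 0.653 in 4 d nitrogen and 5.87% ± 0.338 in 4 d air (SD, n = 3 each). The other members averaged 30.2% ± 0.572 after re-aeration, 12.4% ± 0.513 in 4 d nitrogen and 8.61% ± 0.455 in 4 d air. The listing used the same libraries, so that the 52 rose is no independent support. The table made for 4 d nitrogen and 4 d air overlapped 1 member, chr3:4323411-4323415, by 1 bp.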

How the data were processed

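The 18 MethylC-seq libraries, each from 600 ng of DNA with 0.5% lambda DNA per the labels' protocols, were grouped by title. Per the file headers, the authors deposited, for each region and library, a total read count, a methylated read number and a percent of methylated reads. Whether a count is of molecules or of cytosines is not stated there. The deposited methylated values were treated as estimated counts, being whole numbers times a library factor of 0.9977 to 0.9983 (100% whole to within 0.01), and were rounded. The sources used here name no aligner, region caller or build. The columns left unused numbered 0. Total reads over the dry seed table, which are not library depths, were 865237 to 2150760 per library; in the members the median was 105 to 187.5 reads per region. Reads on neighbouring cytosines are not independent. No pair of libraries of a group agreed within sampling noise (the chi-square per region, with 1 degree of freedom, averaged 1.84 to 9.95 between pairs).

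The model, with dispersion at 1 or above, used libraries with 10 or more reads and 2 or more libraries per group. It was tested on simulated data (Python 3.11.15, numpy 2.4.6, scipy 1.17.1; limma 3.58.1 in R 4.3.3). Alternatives were read minimums, limma, a replicate block, other sources of spread, no minimum difference, pooled reads, a threshold of 40 and leaving out each library. Regions named were the 5 widest called differences per comparison and direction, the 3 lowest in the dry seed, 3 on each side of the threshold, the 5 highest and 3 lowest over the germinated groups, and the 3 longest; the member overlapping the table made for 4 d nitrogen and 4 d air was added after its values were seen. Members and lists were chosen with earlier results of these data known.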

Additional observations from a re-analysis of the deposited data

How the results depend on the processing

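No result changed direction under any alternative run. The count of 2 members called for 4 d nitrogen against 4 d air was 0 where only the 2 compared groups gave the spread, 1 with limma, 0 with members under 40% in the dry seed, and 0 to 1 when leaving out each library. Of all tested regions, re-aeration was called higher than 4 d nitrogen in 69.9% and higher than 4 d air in 84.3%. With members under 40% (144 regions) these calls were 79 and 98, or 54.9% and 68.1% of them. The mean levels were then 35.5% in the dry seed, 10.7% in 24 h nitrogen, 8.86% in 24 h air, 24.3% after re-aeration, 9.73% in 4 d nitrogen and 6.88% in 4 d air. Pooled methylated over pooled total reads gave 16.3% in 24 h nitrogen, 14.1% in 24 h air, 33.7% after re-aeration, 15.3% in 4 d nitrogen and 11.8% in 4 d air; here regions with more reads weigh more. Leaving out each library gave 366 to 384 calls for re-aeration against 4 d nitrogen and 446 to 468 against 4 d air. Same-numbered libraries showed little shared deviation (correlations from -0.0450 to 0.0215). The labels do not say whether the numbers pair libraries, and such correlations cannot settle it. With the replicate block, 410 and 489 members were called in these 2 comparisons, 2 for 4 d nitrogen against 4 d air and 0 in the other 3. Shares of all tested regions were not computed for the replicate block or for leaving out each library. The remaining alternatives, among them read minimums of 5 and 20, kept counts within 1.5 times and mean levels within 1 SD. Members had median reads of 105 to 187.5 per region and library, and differences under 10 points were not called by construction.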
